A study of Mus musculus with 9 samples.

Results

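Transcripts of 10 genes of meiotic prophase were examined in mature mouse eggs. The genes were chosen by name for their place in chromosome pairing and recombination, and all 10 were found among the 30153 genes counted. They cover the chromosome axis (Sycp2, Sycp3, Hormad1), the transverse filament (Sycp1), the central element (Syce1, Syce2, Tex12) and recombination (Spo11, Dmc1, Mlh3). The question was which of these mRNAs are still found in eggs whose Sycp3 locus carries CreERT2 on 1 allele.

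Poly-A RNA was sequenced from pools of metaphase II (MII) oocytes, in 3 groups of 3 libraries named GFP High, GFP Low and RFP. All donors of all groups were 4-week-old females of genotype Sycp3CreERT2/+; Rosa26nT-nG/+ on a mixed genetic background. They received 5 IU of PMSG and, 48 h later, 5 IU of hCG to induce ovulation, and eggs were taken 13 h after hCG. Cumulus cells were removed with hyaluronidase and the bare eggs were picked by hand by their fluorescence. CreERT2 is a Cre recombinase that acts once its receptor part binds tamoxifen; here it is tied to the Sycp3 locus. The nT-nG reporter makes nuclear tdTomato, the red signal of the RFP group, and switches to nuclear GFP once Cre recombines it. Tamoxifen treatment is not given in the sources used here. A GFP High pool held 15 to 16 eggs, a GFP Low pool 49 to 57 and an RFP pool 87 to 100. No library came from a donor without the CreERT2 allele, so no comparison here tests the allele. The labels do not say whether replicate pools came from separate females, so p-values measure the spread between these pools.

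The pairing and recombination steps of meiotic prophase take place in the fetal ovary. Homologous chromosomes are cut by Spo11, repaired by strand exchange and held together by the synaptonemal complex, a protein ladder. Axis proteins form its sides, Sycp1 bridges the sides, and central element proteins lie in the middle. Oocytes then arrest for weeks or longer, grow, and store mRNA. An ovulated egg is thus long past the stage at which these proteins build the complex.

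Promoter sequence is shown for 3 members, chosen to set the most abundant one (Syce2) and Sycp3 beside a scarce one (Dmc1). They come from RefSeq on GRCm38.p6 and run from 250 bases before to 50 bases after the start site, 5′ to 3′ along the gene's strand. Capitals mark matches on either strand to TCCCGC, a sequence bound by E2F factors, and to CACGTG, an E-box. Both kinds of factor are known for binding at germline gene promoters. The 2 motifs do not overlap in these windows. Sycp3 lies at chr10:88459337-88459636 on the plus strand, Syce2 at chr8:84871861-84872160 on the plus strand and Dmc1 at chr15:79605060-79605359 on the minus strand.
Sycp3: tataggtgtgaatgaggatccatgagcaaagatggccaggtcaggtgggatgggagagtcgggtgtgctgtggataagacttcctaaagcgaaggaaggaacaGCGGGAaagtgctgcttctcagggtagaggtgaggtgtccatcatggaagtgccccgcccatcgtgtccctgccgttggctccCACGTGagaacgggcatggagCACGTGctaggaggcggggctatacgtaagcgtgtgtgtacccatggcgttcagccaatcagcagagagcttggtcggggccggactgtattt
Syce2: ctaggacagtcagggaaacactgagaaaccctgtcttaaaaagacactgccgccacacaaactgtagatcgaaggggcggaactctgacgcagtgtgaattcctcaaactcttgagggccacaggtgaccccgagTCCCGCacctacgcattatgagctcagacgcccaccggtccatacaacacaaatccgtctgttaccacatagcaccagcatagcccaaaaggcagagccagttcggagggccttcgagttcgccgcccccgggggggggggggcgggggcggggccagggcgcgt
Dmc1: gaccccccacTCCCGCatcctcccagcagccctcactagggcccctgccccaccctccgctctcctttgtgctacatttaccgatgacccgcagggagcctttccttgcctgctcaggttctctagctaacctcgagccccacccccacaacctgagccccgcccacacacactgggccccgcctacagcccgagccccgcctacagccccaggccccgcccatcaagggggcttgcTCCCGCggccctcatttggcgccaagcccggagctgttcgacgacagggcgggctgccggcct
The Sycp3 window held 1 TCCCGC match (on the opposite strand, GCGGGA) and 2 CACGTG matches, Syce2 held 1 and 0, and Dmc1 held 2 and 0. Of the 9 members with a promoter in the table, 6 held TCCCGC and 4 held CACGTG. Over all 32851 promoters of the table the shares were 20% and 7.15%. The members' median number of CpG dinucleotides was 19, against 7 over all promoters. Both motifs contain a CpG, and the shares were not compared between promoters with like numbers of CpG. Syce2 and Dmc1 both held TCCCGC, and their levels in the egg, per kb of gene length, were 162.9 and 0.536 CPM. A relation between motif and level was not tested. A match describes the letters and is not shown to be a bound site.

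The 9 libraries held 19381677 to 27746256 counts. Levels are CPM (a library's counts divided by its total and put on edgeR's common scale), adjusted by the trimmed mean of M-values (TMM) over the 9 libraries; between genes they are given per kb of the deposited gene length. A level of 3 counts, taken as the limit of detection, equals 0.108 to 0.155 CPM, which covers counting error only. The reporter eGFP was at 35.8 to 43.8 CPM in the GFP High libraries, at 14.5 to 23.9 CPM in GFP Low ones and at 0 to 0.594 CPM in RFP ones. The reporter tdTomato was at 1.71 to 3.57 CPM in RFP libraries, at 0.767 to 1.26 CPM in GFP Low ones and at 0 to 0.0895 CPM in GFP High ones. GFP Low 3 held 35 counts of tdTomato and RFP 3 held 46. All 12 oocyte markers were at 1 CPM or more in every library. Of 14 cumulus and granulosa markers, 2 were, and their summed level was 103 to 196 CPM over GFP High libraries, 134 to 145 CPM over GFP Low and 122 to 191 CPM over RFP, mostly from Nr5a2. Inha, Ptx3 and Tnfaip6 each exceeded 3 CPM in GFP High 1, GFP Low 1 and RFP 2, and so did Inhba, Fst and Ptgs2. Inha was at 0 in 5 of the other libraries. Not all markers of the list followed these libraries. Fshr was highest in GFP High 3 (2.24 CPM) and Cyp11a1 in RFP 1 (3.23 CPM), where Hsd3b1 was at 4.22 CPM. Of 6 blood, stroma and epithelium markers matched, 1 (Pecam1) was at 1 CPM or more throughout. Col1a1 and Col3a1 were at 2.78 and 2.85 CPM in RFP 1, the highest library for each. In pooled eggs, fewer cells of a type and less RNA per cell cannot be told apart.

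Most of the prophase genes were still represented in the egg. Of the 10 members, 7 were at 1 CPM or more in all 9 libraries: Syce2, Tex12, Sycp3, Sycp2, Sycp1, Syce1 and Hormad1. The share over all counted genes was 34.9%, and 51.2% over the 18483 protein-coding ones. Of 53 other prophase genes matched, 39 (73.6%) were. Dmc1 and Mlh3 reached 1 CPM in 6 and 5 of the 9 libraries. Spo11 was the only member close to absent.

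**Figure D1:**
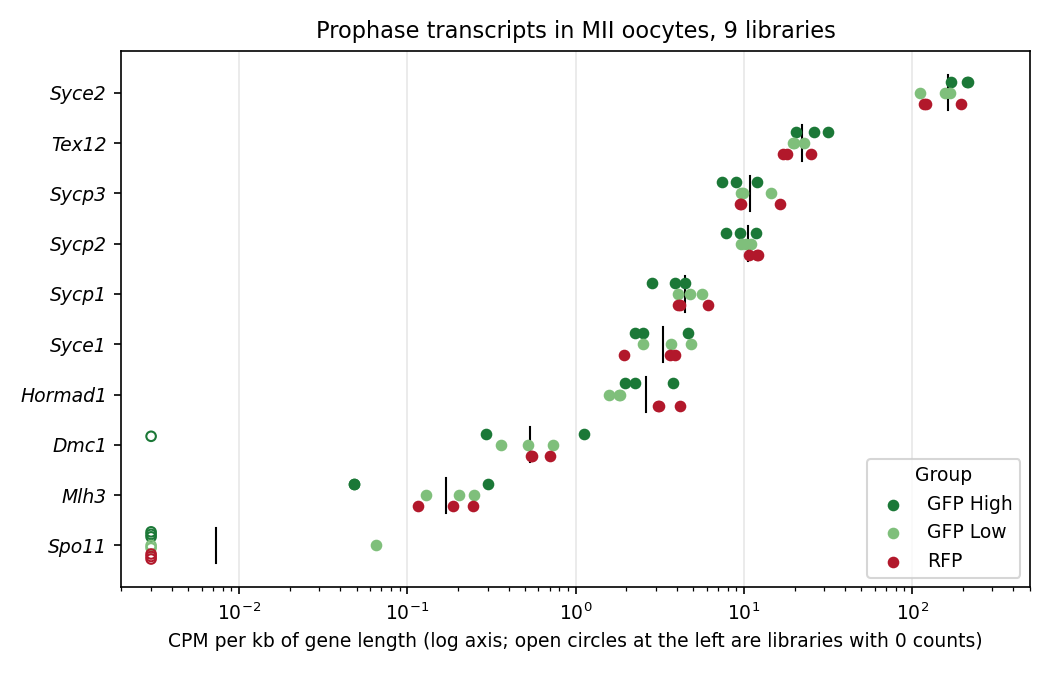
Level of each member in each of the 9 libraries, in CPM per kb of gene length on a log axis, with a bar at the mean of the 9. Syce2 lies above every other member in every library, and Spo11 has counts in 1 library only.

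Gene positions are on the mouse build mm10. Among axis genes, Sycp3 (ENSMUSG00000020059, chr10:88459569-88473236, plus strand), which builds the lateral elements with Sycp2, was at 15.2, 9.36 and 11.4 CPM in GFP High 1 to 3. It was at 12.2, 12.4 and 18.3 CPM in GFP Low 1 to 3, and the RFP libraries held 20.7, 12.2 and 12.0 CPM. RFP 1 was the highest and GFP High 2 the lowest, and the 3 groups overlapped. Per kb its mean was 10.9 ± 2.88 (SD, n = 9), above 67.7% of the 12805 genes with a mean of at least 1 CPM. Raw Sycp3 counts were 231 to 544. Which parts of Sycp3 the CreERT2 allele still transcribes is not given in the sources used here, so a count cannot be assigned to either allele. The gene lies wholly inside Chpt1 on the opposite strand, which had 1 to 45 counts. A stretch of 420 of the 1169 bases of a Sycp3 transcript matches a Chpt1 transcript at 100% identity, and the strand of the match was not recorded. Whether reads from that stretch were counted for Sycp3 is not known, so its level per kb may be off. Sycp2 (chr2:178345293-178407685, minus strand), its partner on the axis, had 46.6 to 72.3 CPM and, over its longer transcript, 10.5 ± 1.44 CPM per kb. Hormad1 (chr3:95559677-95587671, plus strand), which marks unsynapsed axes, was at 3.38, 3.89 and 6.53 CPM in GFP High 1 to 3. The GFP Low libraries held 3.13, 3.18 and 2.74 CPM of it and the RFP libraries 5.44, 7.20 and 5.31 CPM. The 3 GFP Low libraries were its lowest, and its mean was 2.62 ± 0.943 CPM per kb. A processed pseudogene, Gm15529, is 97.7% identical to Hormad1 over 922 of 1511 bases and had 36 to 115 counts, so Hormad1 reads may be split between them.

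The transverse filament gene Sycp1 (chr3:102818499-102936100, minus strand) ranged from 10.1 CPM in GFP High 2 to 21.9 in RFP 1, with 4.45 ± 0.980 CPM per kb. A related pseudogene, Sycp1-ps1, is 92.4% identical to it over 2560 of 3437 bases. Its central element partners covered a wide range. Syce2 (ENSMUSG00000003824, chr8:84872111-84888221, plus strand), which with Tex12 forms the fibres of the central element, was at 419.7, 421.3 and 333.4 CPM in GFP High 1 to 3. The GFP Low libraries held 219.7, 328.3 and 310.7 CPM, and the RFP libraries 384.1, 237.6 and 230.9 CPM. Every GFP High library was above every GFP Low library, while RFP 1 lay inside the GFP High range. At 162.9 ± 39.9 CPM per kb, Syce2 was above 97.9% of genes with a mean of at least 1 CPM. Its last 1829 bases overlap Gcdh on the opposite strand, which had 176 to 317 counts against 4277 to 11554 for Syce2. Tex12 (chr9:50556819-50561325, minus strand) had 17.4 to 31.9 CPM and 22.3 ± 4.58 CPM per kb, above 80.7% of genes; it lies inside Il18 on the opposite strand, which had 0 to 9 counts. Syce1 (chr7:140777229-140787852, minus strand), which also binds in the central element, had 2.82 to 7.04 CPM and 3.32 ± 1.05 CPM per kb. Per length, Syce2 was 7.34 ± 1.36 times its partner Tex12 and 54.6 ± 23.7 times Syce1 (SD, n = 9). The level of an mRNA does not show how much protein the egg holds.

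The recombination genes were the scarcest. Dmc1 (chr15:79561497-79605109, minus strand), the meiotic strand exchange recombinase, had 75, 0 and 16 counts in GFP High 1 to 3, while GFP Low libraries held 35, 23 and 35 and RFP libraries 45, 30 and 36. GFP High held both its highest and its lowest library. Mlh3 (chr12:85234520-85270599, minus strand), a mismatch repair protein of crossover sites, had 10, 9 and 51 counts in the GFP High libraries, 19, 40 and 52 counts in the GFP Low libraries and 23, 42 and 38 in the RFP libraries. Their means were 0.536 ± 0.313 and 0.170 ± 0.0900 CPM per kb. Spo11 (chr2:172977700-172993576, plus strand), the enzyme that makes the breaks, had 5 counts in GFP Low 1 and 0 in the other 8 libraries; 0 counts in a library allow up to 0.108 to 0.155 CPM.

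Ranked by mean level per kb the order was Syce2, Tex12, Sycp3, Sycp2, Sycp1, Syce1, Hormad1, Dmc1, Mlh3 and Spo11. Neighbours in that order were compared within libraries by a two-sided exact sign-flip permutation test, over 9 pairs with Benjamini-Hochberg adjustment. Of the 9 pairs, 7 differed at adjusted p under 0.05. The pairs and their direction were set by ranking the same values, so these p-values only describe how steady each difference was between libraries. An error in a gene's deposited length would be the same in every library and does not enter them. Syce2 exceeded Tex12 by 140.6 CPM per kb in 9 of 9 libraries (exact p = 0.00391, the smallest the test can give; adjusted p = 0.00703), and Tex12 exceeded Sycp3 by 11.4 in 9 of 9 (adjusted p = 0.00703). Sycp2 exceeded Sycp1 by 6.10 and Hormad1 exceeded Dmc1 by 2.09, each in 9 of 9 libraries with the same exact adjusted p. Mlh3 and Spo11 differed by 0.162 CPM per kb; this pair is among the 7, but with Spo11 at 0 in 8 libraries no other direction was possible there, so its test adds nothing to the values. Sycp1 exceeded Syce1 by 1.13 CPM per kb in 8 of 9 libraries, and Dmc1 exceeded Mlh3 by 0.367 in 7 of 9 (exact adjusted p = 0.0201 for each). Before division by length, Dmc1 and Mlh3 had means of 1.31 and 1.28 CPM. The difference of that pair thus rests on their deposited lengths, 2435 and 7554 bases. Sycp3 and Sycp2 differed by 0.319 ± 3.20 CPM per kb, and Sycp3 was higher in only 3 of 9 libraries (exact p = 0.766). Syce1 and Hormad1 differed by 0.696 ± 1.22 CPM per kb, with Syce1 higher in 7 of 9 (exact p = 0.121, adjusted p = 0.136). Without GFP High 1, GFP Low 1 and RFP 2, 0 of the 9 pairs passed: 5 were at the smallest exact p that 6 libraries can give, 0.03125 (adjusted p = 0.0563), and the exact p was 0.0938 for Sycp1 against Syce1 and 0.125 for Dmc1 against Mlh3.

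Between the fluorescence groups, 0 of the 9 members tested passed edgeR's quasi-likelihood test at adjusted p under 0.05 in any comparison. Spo11 was too low to be tested. Over all genes tested the share called was 0.0135% (2 of 14829) for GFP High against RFP, 0.0197% (3 of 15199) for GFP Low against RFP and 0% (0 of 14785) for GFP High against GFP Low. DESeq2 also called 0 members in each comparison, where it called 0.0696%, 0.0661% and 0.0192% of all genes, and limma-voom called 0 as well. At an unadjusted edgeR p under 0.05 there was 1 member in each, where 4.09%, 2.62% and 3.77% of all genes were. These were Syce2, Hormad1 and Syce2 again. Groups did not overlap for 0, 1 and 2 of the 9 members, against 12.1%, 7.72% and 11.7% of all genes tested. GFP High libraries also varied more at large: of 12805 genes, 66.9% had their largest coefficient of variation between GFP High libraries, 15.2% between GFP Low ones and 17.9% between RFP ones. For the members the count was 5, 0 and 4 of 9.

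**Figure D2:**
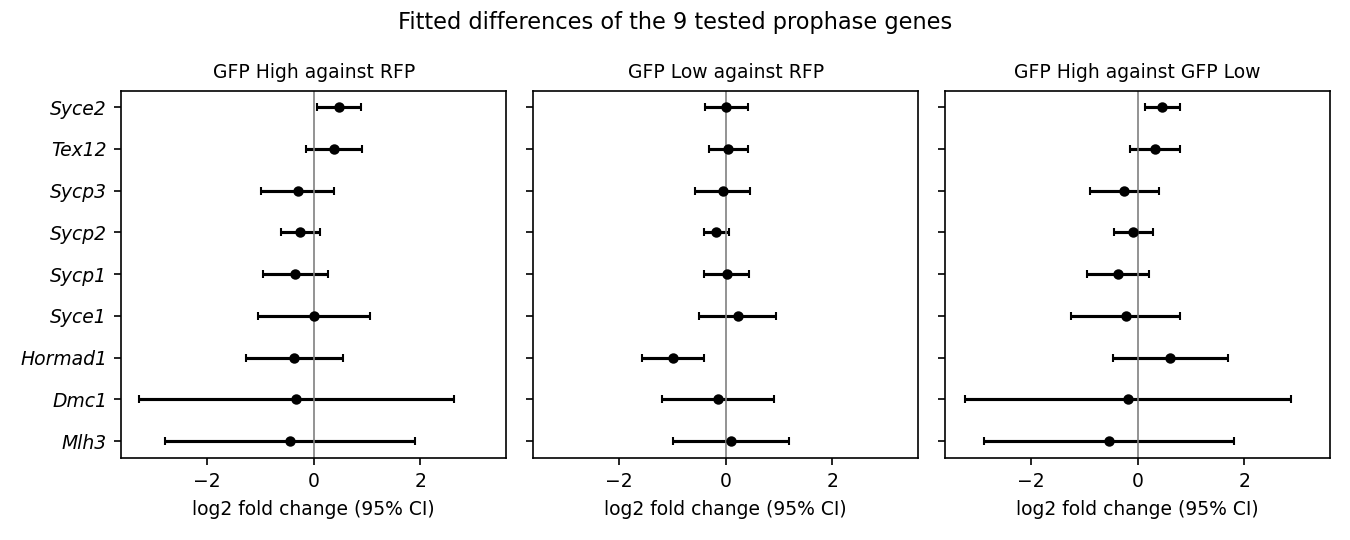
Fitted log2 fold change of each tested member in each of the 3 comparisons, with its 95% interval. The intervals of Hormad1 in GFP Low against RFP and of Syce2 in both comparisons of GFP High do not reach 0, but none of these passes adjustment over all genes.

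Sycp3, the locus that carries the Cre, gave a log2 fold change of −0.30 (SE 0.31, 95% interval −0.99 to 0.38) for GFP High against RFP. It was −0.06 (SE 0.24, interval −0.57 to 0.46) for GFP Low against RFP and −0.25 (SE 0.29, interval −0.89 to 0.39) for GFP High against GFP Low. Group means were 12.0 ± 2.96, 14.3 ± 3.47 and 14.9 ± 4.98 CPM in GFP High, GFP Low and RFP (SD, n = 3). The intervals allow a change of Sycp3 in either direction. Without RFP 1, its highest library, the values were −0.0042 for GFP High against RFP and 0.25 for GFP Low against RFP. Without GFP High 1 the first was −0.52, and without GFP High 1, GFP Low 1 and RFP 2 it was −0.64. The value for GFP High against GFP Low became −0.46 without GFP High 1, −0.036 without GFP Low 3 and −0.56 without those 3 libraries.

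Mean Syce2 levels of GFP High, GFP Low and RFP were 391.5 ± 50.3, 286.2 ± 58.3 and 284.2 ± 86.6 CPM (SD, n = 3). The log2 fold change was 0.46 (SE 0.15, interval 0.13 to 0.79) for GFP High against GFP Low and edgeR's adjusted p was 0.998. It was 0.48 (SE 0.19, interval 0.06 to 0.90) against RFP and edgeR's adjusted p was 0.997. GFP Low and RFP gave 0.02 (SE 0.18). In the authors' deposited table Syce2 had 0.47 with an adjusted p of 0.306 for GFP High against GFP Low, and 0.49 with 0.467 against RFP. Testing all genes without a filter on low counts gave edgeR adjusted p = 0.032 for GFP High against GFP Low, the only call of a member under any setting run; without that filter 0.0583%, 0.116% and 0.0587% of all genes were called in the 3 comparisons. Against GFP Low, the value was 0.30 without GFP Low 1 and 0.25 without the 3 libraries with Inha, Ptx3 and Tnfaip6 above 3 CPM. Against RFP it was 0.75 without RFP 1 and 0.31 without those 3 libraries.

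Mean Hormad1 levels of GFP High, GFP Low and RFP were 4.60 ± 1.69, 3.02 ± 0.240 and 5.98 ± 1.06 CPM (SD, n = 3). For GFP Low against RFP the log2 fold change was −0.98 (SE 0.27, interval −1.56 to −0.40) and edgeR's adjusted p was 1. The authors' deposited table gave −0.98 with an adjusted p of 1. Its near-identical copy Gm15529 gave −0.71 (SE 0.34) in the same comparison. Reads may be split between Hormad1 and this copy, so the value of the copy is not a separate measure. For GFP High against GFP Low, Hormad1 gave 0.62 (SE 0.48, interval −0.46 to 1.69), or 0.27 without GFP High 3.

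**Figure D3:**
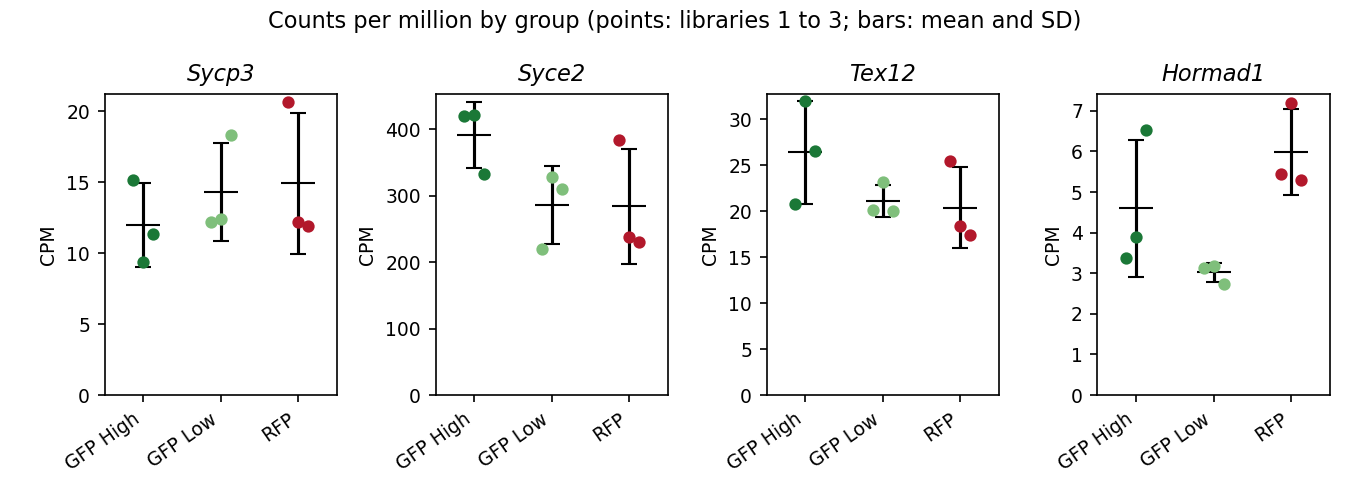
CPM of Sycp3, Syce2, Tex12 and Hormad1 by group, with each library as a point and bars at the group mean and SD. For Syce2 all GFP High points lie above all GFP Low points, and for Hormad1 all GFP Low points lie below those of the other groups.

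The remaining members had intervals that include 0 in each comparison. Tex12, at 26.4 ± 5.60, 21.1 ± 1.77 and 20.4 ± 4.42 CPM in GFP High, GFP Low and RFP, gave 0.39 (SE 0.23) for GFP High against RFP, or 0.22 without GFP High 2. The widest intervals belonged to the scarce genes: Dmc1 gave −0.32 (interval −3.28 to 2.63) and Mlh3 −0.44 (interval −2.78 to 1.89) in that comparison. Without GFP High 1 these were −2.01 and −0.050, without GFP High 2 they were 0.26 and −0.053, and without GFP High 3 they were −0.081 and −1.90. Limma-voom gave −2.01 for Dmc1 and −0.98 for Mlh3. Of the 9 members, 3 lay above 0 and 6 below in GFP High against RFP, 5 and 4 in GFP Low against RFP, and 3 and 6 in GFP High against GFP Low. Their median log2 fold changes were −0.30, 0.02 and −0.18, beside −0.0056, −0.0041 and −0.0048 over all genes tested.

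The other prophase genes were grouped by step, from lists chosen with earlier results known. Of the synaptonemal complex and axis list 5 of 7 were at 1 CPM or more in all libraries, led by the cohesin Smc1b at 17.6 CPM per kb, then Fkbp6 at 2.57 and Hormad2 at 2.17. Syce3, another central element gene, named after its values were seen, was at 0.127 CPM per kb with at most 12 counts, beside 162.9 for Syce2. Break formation genes had 4 of 7, led by Rec114 at 3.47, Ccdc36 (Iho1) at 2.78 and Prdm9, which chooses break sites, at 1.37. Strand exchange genes had 7 of 8 and the highest median, 27.9 CPM per kb, against 3.88 for the 10 members. They were led by Mnd1 at 140.2 and Psmc3ip at 64.5, the partner pair that aids Dmc1, and by 4930432K21Rik (Brme1) at 45.5. Dmc1 itself stood at 0.536 CPM per kb.

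**Figure D4:**
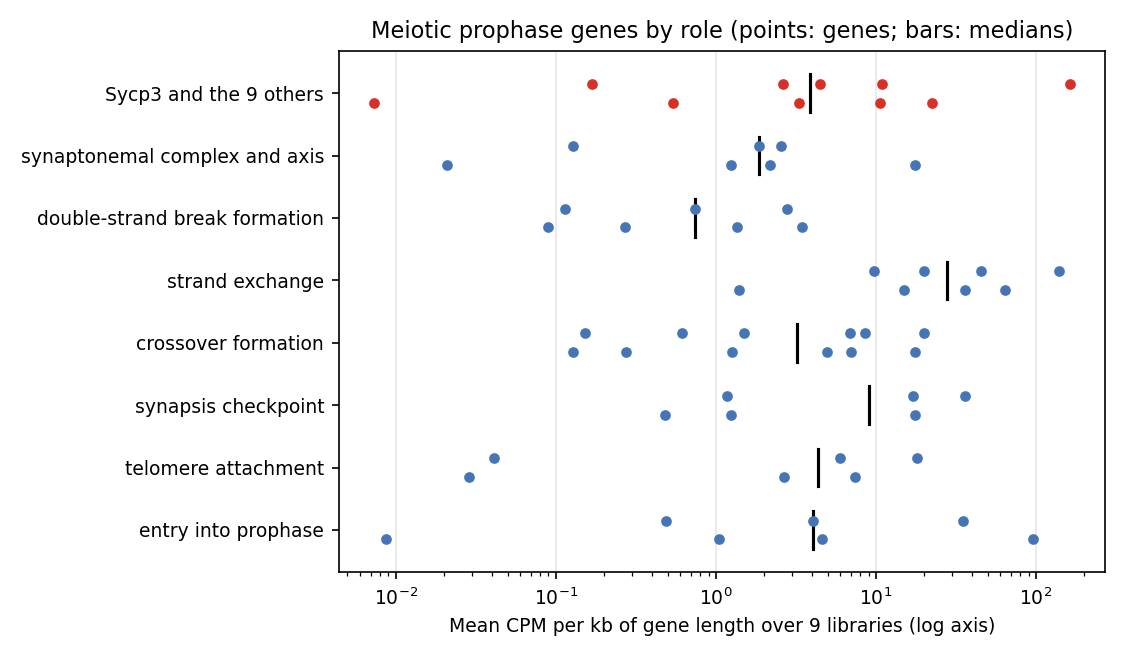
Mean CPM per kb over the 9 libraries of the 10 members (red) and of the other prophase genes by role (blue), on a log axis with bars at the medians. Strand exchange genes have the highest median, 27.9, and the 3 lowest members are Dmc1, Mlh3 and Spo11.

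Crossover genes had 9 of 12, led by Mus81 at 20.0, Exo1 at 17.5 and Msh4 at 8.53 CPM per kb. Checkpoint genes had 5 of 6, led by Brca1 at 36.0, Mdc1 at 17.5 and Topbp1 at 16.9, and telomere attachment genes 4 of 6, led by Ccdc155 (Kash5) at 18.0, Terb1 at 7.37 and Sun1 at 5.99. Genes of entry into prophase had 5 of 7. Dazl at 96.1, Ddx4 at 34.8 and Ythdc2 at 4.63 led them, while Stra8, the trigger of meiotic entry, had 3 counts or fewer in every library. In the group comparisons, edgeR called 0 of 47, 0 of 47 and 0 of 45 tested at adjusted p under 0.05, and 2, 3 and 2 had an unadjusted p under 0.05. Over all genes tested, 0.0135%, 0.0197% and 0% were called, and 4.09%, 2.62% and 3.77% had an unadjusted p under 0.05. The median log2 fold changes of these other prophase genes were −0.05, 0.03 and −0.06, against −0.30, 0.02 and −0.18 for the members.

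The transcripts whose log2 CPM over the 9 libraries most resembled that of Sycp3 were Ints9 (Pearson r = 0.94), AC126035.1 (0.90), Gm19757 (0.90), Cdc6 (0.89) and 0610040F04Rik (0.88), among 9242 genes at a mean of at least 5 CPM. They were chosen for their high r, so these values are a description. Of the members, Sycp1 came nearest with r = 0.63, and 3.82% of the genes had an r that high.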

How the data were processed

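Paired-end poly-A reads of 9 pools of MII oocytes were processed by the authors with fastp, HISAT2 2.0.5, featureCounts 1.5.0-p3 and DESeq2 1.20.0 on mm10, per the submitters' processing notes. Whether counting used strand is not given in the sources used here. The authors deposited 3 tables, each with raw counts of 6 libraries, a normalised signal and FPKM, along with their own log2 fold changes and p-values. The deposited FPKM served for 1 alternative of the order of levels, and the deposited log2 fold changes and p-values are quoted only where named. The deposited signal entered no test. Counts of a library did not differ between the tables that hold it (0 disagreements). The lowest total of a gene in a table was 2 counts. The tables were joined by gene identifier into 30153 genes, and 178 genes that a table lacked were set to 0 there.

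Each pair of groups was compared with edgeR 4.0.16 (R 4.3.3) on its 6 libraries: filterByExpr, TMM, the quasi-likelihood test, and Benjamini-Hochberg adjustment over all genes tested at 0.05. Alternatives were DESeq2 1.42.0, limma-voom (limma 3.58.1), RLE factors, no filter, a fit of all 9 libraries, a replicate block and leaving out each library. Leaving out GFP High 1, GFP Low 1 and RFP 2 together was chosen after seeing the data. Fits were also run on simulated counts, and the outcome is not reported here. The 10 members and all gene lists were chosen with earlier results of these data known. Named genes are the members, up to 3 leading genes and those at 3 counts or fewer in each of 7 other lists, any listed gene called, the 5 most like Sycp3, overlapping neighbours and the reporters; Syce3 and near-identical copies were added after their values were seen. Near-identical copies were found by BLAST 2.17.0 of GENCODE M21 transcripts. Rec8 and Spata22 were not analysed here, and 1 other listed gene is not reported by name here.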

Additional observations from a re-analysis of the deposited data

How the results depend on the processing

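Among 189 values of single members under the alternatives other than leaving out 1 library, 181 kept their direction and their side of the threshold, 7 changed sign and 1 passed the threshold. The one that passed was Syce2 for GFP High against GFP Low without a filter on low counts (0.45), which makes 1 member called in place of 0. The sign changes were Syce1 for GFP High against RFP, at −0.0080 without a filter, −0.019 with limma-voom and −0.024 with the replicate block, and 4 values without GFP High 1, GFP Low 1 and RFP 2. These were Mlh3 at 0.22 for GFP High against RFP, Sycp1 at −0.21 for GFP Low against RFP, and Sycp2 at 0.11 and Syce1 at 0.21 for GFP High against GFP Low. The number of neighbouring pairs of levels that passed was 0 without those 3 libraries, with 5 pairs at 0.03125, the smallest exact p of 6 libraries, and was 7 to 8 when 1 library was left out. In the 5 pairs at that smallest exact p, the gene ranked higher was higher in 6 of 6 libraries. Among them was Mlh3 over Spo11, with Spo11 at a mean of 0. That smallest p of the sign-flip test gave an adjusted p of 0.0563, above the threshold. The cause of the sign changes was not tested. The number of members at 1 CPM or more stayed at 7 when any 1 library was left out. By more than 3 counts in place of 1 CPM, Mlh3 was found in 9 libraries, Dmc1 in 8 and Spo11 in 1. Over all genes, DESeq2 called 12, 10 and 4, and edgeR without a filter called 16, 34 and 16, where the filtered edgeR test called 2, 3 and 0.

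When 1 library was left out, 136 of 162 member values kept their direction and 26 changed it; none of the 162 passed the threshold. The ranges of those that crossed 0 were, for GFP High against RFP, −0.39 to 0.19 for Syce1 and −2.01 to 0.26 for Dmc1. For GFP Low against RFP they were −0.28 to 0.25 for Sycp3, −0.11 to 0.23 for Sycp1, −0.034 to 0.43 for Syce1, −0.11 to 0.29 for Syce2, −0.052 to 0.24 for Tex12, −0.43 to 0.073 for Dmc1 and −0.15 to 0.37 for Mlh3. For GFP High against GFP Low they were −0.25 to 0.051 for Sycp2, −0.62 to 0.022 for Syce1 and −1.86 to 0.40 for Dmc1. With 2 libraries in a group, the spread was pooled with the other group.

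Libraries share replicate numbers in the labels, but the labels name no shared source, and libraries with 1 number in common departed from their groups with r of only −0.113 to 0.116 across genes, so the numbers were not taken as pairs. With the replicate number as a block, 0 members were called in each comparison, and Sycp3 gave −0.28, −0.032 and −0.25 for GFP High against RFP, GFP Low against RFP and GFP High against GFP Low. The block moved Dmc1 to −1.50 and Mlh3 to −0.95 where GFP High was set against RFP, and to −1.41 and −1.05 where it was set against GFP Low. Dmc1, Mlh3 and Spo11 had the fewest counts of the members.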

Other observations

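Pairs of members were compared for shared variation over the 9 libraries, as log2 CPM, for the 7 members at 1 CPM or more throughout, which makes 21 pairs. None passed Benjamini-Hochberg adjustment. The central element partners Syce2 and Tex12 had the highest correlation before group means were removed, with Pearson r = 0.73 (exact permutation p = 0.0262, adjusted p = 0.550) and Spearman rho = 0.78 (exact permutation p = 0.0172, adjusted p = 0.327). It was 0.65 without the 2 libraries farthest from the median of Syce2 and 0.56 after removing group means, where 4 other pairs were higher: Hormad1 and Syce1 at 0.75, Sycp2 and Hormad1 at 0.70, Sycp3 and Syce2 at 0.65, and Sycp2 and Syce1 at 0.61. Sycp3 and Sycp1 had r = 0.63 (exact permutation p = 0.0680, adjusted p = 0.621) and rho = 0.73 (exact permutation p = 0.0311, adjusted p = 0.327).

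Of the other prophase genes, those with an unadjusted edgeR p under 0.05 included Fkbp6 and Mei1 in GFP High against RFP. Hsf2bp, 4930432K21Rik and Mei4 were among them in GFP Low against RFP, and Topbp1 in GFP High against GFP Low. These genes were named after their values were seen. Over all genes tested, 4.09%, 2.62% and 3.77% had an unadjusted edgeR p under 0.05 in the 3 comparisons. Fkbp6 was at 2.81 CPM in GFP High and 6.15 in RFP (log2 difference −1.11, SE 0.44, adjusted p = 0.997 by edgeR).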
